A study of Homo sapiens with 12 samples.

Results

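The genes described here are 10 genes of Wnt signaling, followed in 2 melanoma cell lines exposed to the RAF inhibitor vemurafenib. They were chosen by symbol, as the rows for WNT5A, FZD7, CTNNB1, AXIN2, LEF1, TCF7, TCF7L2, DKK1, DKK3, and SFRP1, and all 10 were found among the 23273 genes listed for each line. RNA of COLO858 and of MMACSF, both established BRAF-mutant human melanoma lines, was sequenced from cells given DMSO, the vehicle, and from cells given 0.2 μM vemurafenib for 24 or 48 h. Each of the 6 groups had 2 libraries, 12 in all, and each line stands for a single tumor. DMSO libraries carry no time in their labels, so 24 h and 48 h were each set against the one DMSO pair of that line. Values are FPKM, fragments counted per kilobase of each transcript and relative to the size of the library, which can be compared between genes because they are per length.

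In the canonical Wnt pathway, a WNT ligand binds a Frizzled receptor and a coreceptor of the LRP family at the cell surface, which stops the destruction complex from degrading β-catenin. β-catenin then enters the nucleus and acts with DNA-binding proteins of the TCF/LEF family, while secreted proteins of the DKK and SFRP families act outside the cell. WNT5A is best known for β-catenin-independent signaling, and in melanocytes the canonical branch is tied to lineage genes such as MITF. WNT5A was followed as the ligand, FZD7 as the receptor, CTNNB1 (β-catenin) and AXIN2 as transducer and feedback inhibitor, LEF1, TCF7, and TCF7L2 as nuclear factors, and DKK1, DKK3, and SFRP1 as secreted modulators.

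DKK1 passed the test of a fall in COLO858 and TCF7 in MMACSF, and their start sites are shown because they hold the letters that TCF/LEF proteins are known to bind. CTTTGA and CTTTGT were searched on both strands in promoters of 300 bases, from 250 before to 50 after the start site, in the RefSeq promoter table, which held entries for 6 of the 10 genes. At least 1 match was found in 26.2% of all 35116 promoters and in 3 of the 10 promoters of these genes. The 250 bases before the start site follow, 5′ to 3′ on the strand of the gene, with matches in capitals, and with GRCh37 positions found by exact match.
DKK1, chr10:54073791-54074040, plus strand: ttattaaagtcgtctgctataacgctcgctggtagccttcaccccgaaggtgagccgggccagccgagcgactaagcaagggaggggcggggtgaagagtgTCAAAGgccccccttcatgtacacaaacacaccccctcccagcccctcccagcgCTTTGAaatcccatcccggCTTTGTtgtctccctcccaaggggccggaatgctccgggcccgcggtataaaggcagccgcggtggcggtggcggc
TCF7, second listed start site, chr5:133459059-133459308, plus strand: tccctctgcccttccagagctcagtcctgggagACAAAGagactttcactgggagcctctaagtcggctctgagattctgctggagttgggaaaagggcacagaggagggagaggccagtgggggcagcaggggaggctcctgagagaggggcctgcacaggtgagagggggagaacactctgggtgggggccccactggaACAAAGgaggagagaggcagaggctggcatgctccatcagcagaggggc
The DKK1 sequence, which lies just before the annotated gene and meets exons of the antisense gene PRKG1-AS1, held 3 matches, starting 149, 95, and 76 bases before the start site, and 0.886% of all promoters held at least as many. The TCF7 sequence lies in an intron, with 0 bases in annotated exons of the gene, and held 2 matches, starting 217 and 49 bases before the start site, a number reached by 5.33% of promoters. The single LEF1 promoter listed (chr4:109087408-109087707, minus strand) and the first listed TCF7 promoter (chr5:133451054-133451353) held 0. Both sequences were chosen because they hold matches, so the percentages of promoters with as many are a description and do not test for enrichment. A match is a string of letters and says nothing about occupancy.

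The library facts that bear on these values are few. SPRY4, a feedback inhibitor of MAPK signaling, was called lower in drug in each comparison, with mean FPKM 31.3- and 33.3-fold lower in COLO858 (24 h, then 48 h) and 17.0- and 8.04-fold lower in MMACSF. Of 8 melanocyte lineage markers, 8 averaged at least 1 FPKM in MMACSF and 6 in COLO858, where MLANA and TYR did not. Summed over the 8, the level was 702 to 717 FPKM in DMSO and 3922 to 4158 in drug in COLO858, and 11160 to 11373 and 15589 to 17555 in MMACSF. The markers did not all rise in COLO858. DCT, TYRP1, PMEL, and S100B passed as higher there at both times, while MITF, SOX10, and TYR did not pass (limma). Of 4 endothelial markers 0 averaged 1 FPKM in either line, and of 6 leukocyte markers 0 did in COLO858 and 1, LYZ, in MMACSF. Of 5 epithelial markers KRT8 did in COLO858 and KRT8 and CDH1 in MMACSF, with a summed level of 5.41 to 6.97 FPKM in DMSO and 2.44 to 2.54 at 48 h in COLO858, and of 24.0 to 29.5 and 36.5 to 41.5 in MMACSF, and neither gene passed the test against DMSO. LYZ fell by 1.61 ± 0.19 (SE, log2 scale) at 48 h in MMACSF and passed (limma adjusted p = 0.00497). The part of such markers in the values below was not tested. The microRNA gene MIR4461 took 14.1% to 19.0% of the summed FPKM in the replicate 1 libraries and 25.8% to 43.4% in the replicate 2 libraries. Of the 10 Wnt genes, 4 (CTNNB1, TCF7, TCF7L2, and DKK3) were higher in replicate 2 in 6 of 6 groups, and the part of MIR4461 in this was not tested. Cells were plated in 2 replicates and treated the next day, per the methods of the study, and whether the replicates came from separate experiments is not stated, so p-values measure the spread between such platings. Read depth is unknown. In bulk RNA, fewer cells of a kind and less RNA per cell cannot be told apart.

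Of the 10 genes, 5 passed the test described below in at least 1 of the 4 comparisons against DMSO. The share of all genes that did so was not counted. LEF1 fell at both times, DKK1 fell at 24 h, and DKK3 rose at 48 h in COLO858. SFRP1 fell at both times and TCF7 fell at 48 h in MMACSF. Each line was tested with limma on log2(FPKM + 1), among genes that averaged 1 FPKM or more in any group, with p-values adjusted over all genes tested and a threshold of 0.01, and changes below are on this log2 scale. Filtering left 9 of the 10 genes in COLO858, without WNT5A, and 9 in MMACSF, without DKK3. In COLO858, 2 of 9 passed at 24 h, beside 9.82% of all genes, and 2 of 9 at 48 h, beside 9.47%. In MMACSF, 1 of 9 passed at 24 h, beside 5.83% of all genes, and 2 of 9 at 48 h, beside 8.83%. Counts as small as these were not tested against the background. This fit leaves out the replicate number, and with it as a block 6, 5, 4, and 5 of 9 genes passed in these comparisons. All genes that passed then numbered 5719 and 5549 of 12696 in COLO858, and 3284 and 3790 of 12599 in MMACSF. For some genes, not passing the test below thus depends on that choice. Median changes were -0.46 and -0.30 at 24 and 48 h in COLO858, where all genes had medians of 0.06 and -0.01. Medians in MMACSF were -0.32 and -0.48, beside 0.07 and 0.06. Drug and DMSO libraries did not overlap for 8, 7, 8, and 8 of 9 genes in the 4 comparisons, beside 63.1%, 61.3%, 59.8%, and 64.5% of all genes.

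**Figure D1:**
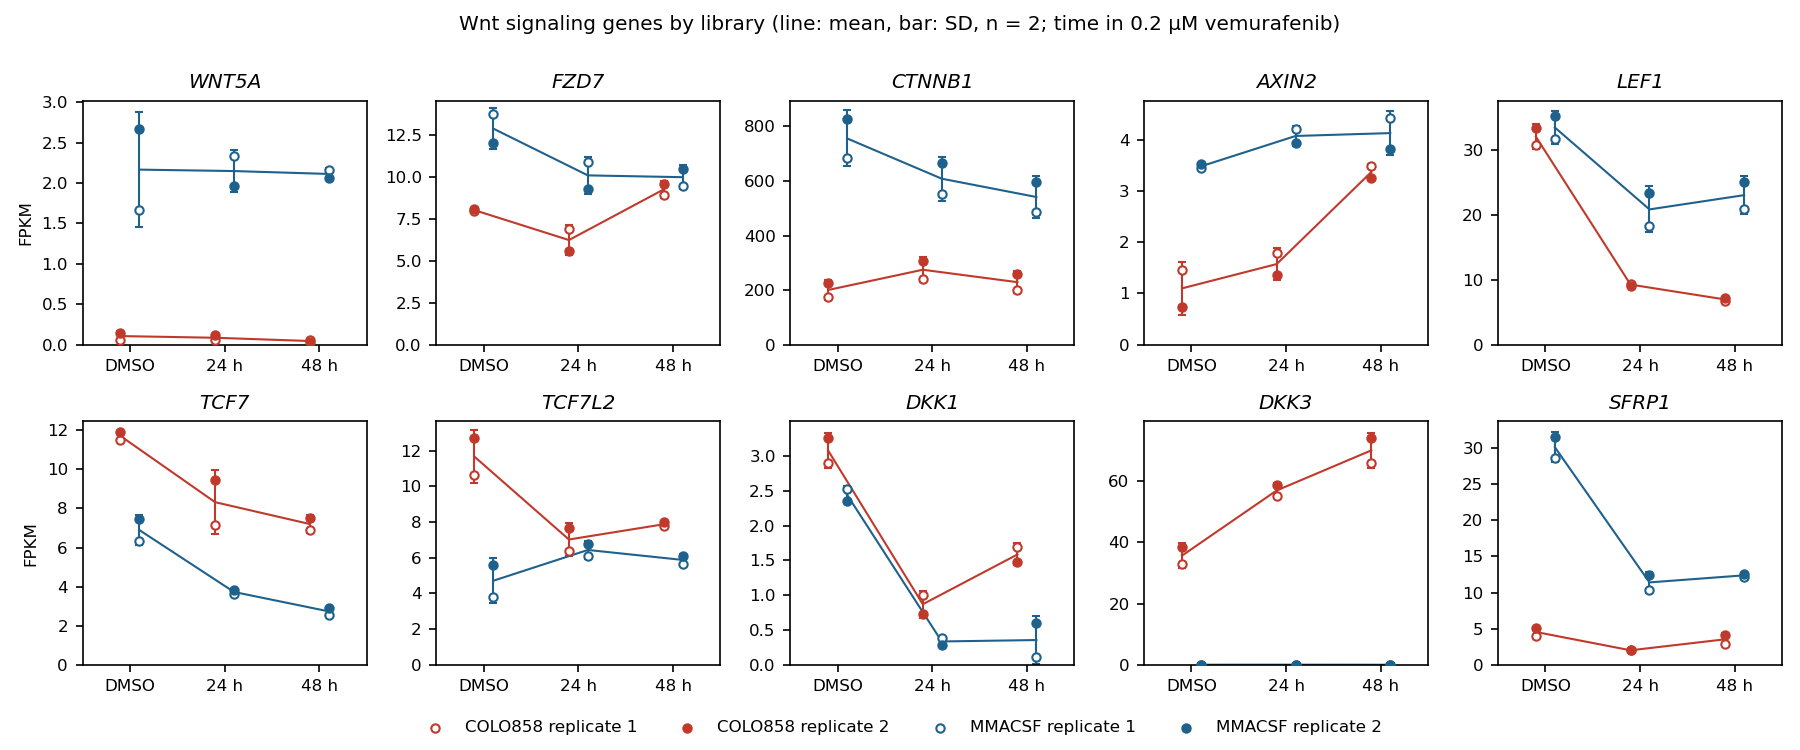
FPKM of each of the 10 genes in every library, with 1 panel per gene and a linear axis that starts at 0. Points are libraries, lines join the group means, and bars are the SD (n = 2). LEF1, TCF7, and DKK1 sit below their DMSO libraries at both drug times in both lines, while WNT5A is near 0 in COLO858 and DKK3 near 0 in MMACSF.

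**Figure D2:**
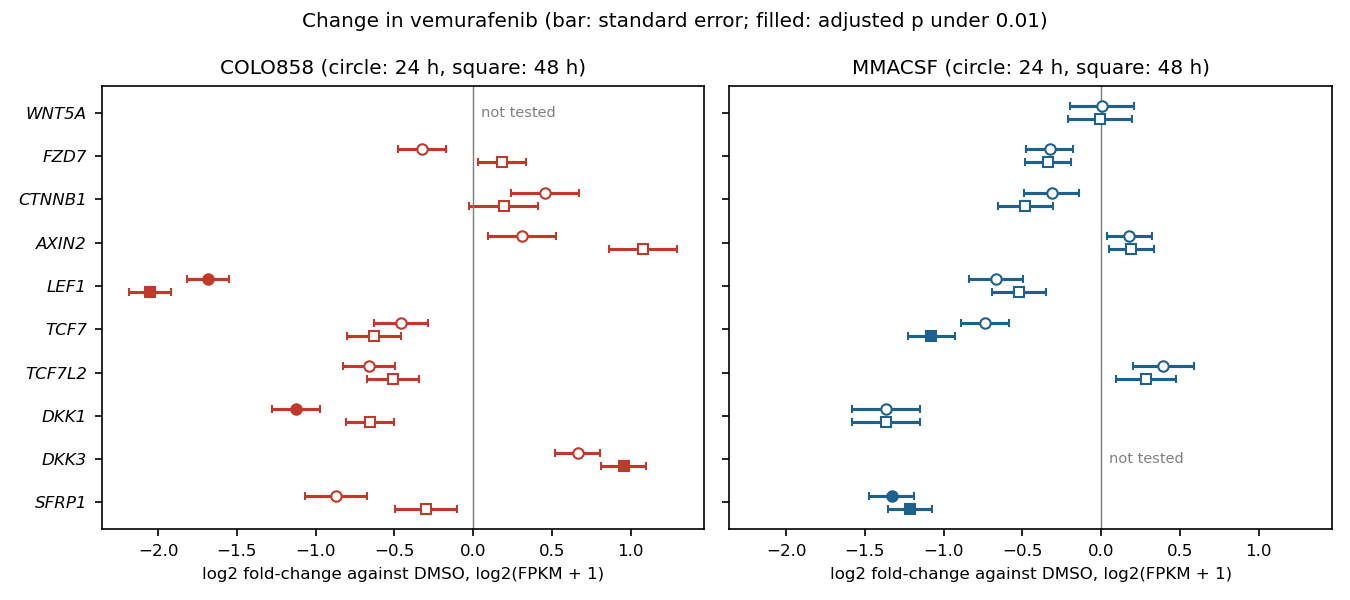
Change of each gene against DMSO on the log2(FPKM + 1) scale, with circles for 24 h, squares for 48 h, and bars for the standard error. Filled symbols passed the threshold. LEF1 in COLO858 at 48 h, at -2.05, is the point farthest from 0.

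WNT5A, the ligand, was close to 0 in COLO858 and low in MMACSF. In COLO858 its FPKM was 0.0637 and 0.149 in DMSO, 0.0516 and 0.119 at 24 h, and 0.0579 and 0.0325 at 48 h, too low to be tested. MMACSF libraries held 1.67 and 2.67 in DMSO, 2.33 and 1.96 at 24 h, and 2.16 and 2.07 at 48 h. Both drug groups lay within the spread of the DMSO pair. The change in MMACSF was 0.01 ± 0.20 (SE) at 24 h and -0.01 ± 0.20 at 48 h, with 95% confidence intervals of -0.50 to 0.51 and -0.51 to 0.50 (limma adjusted p = 0.986 and 0.987). The gene lies at chr3:55499743-55524567 (GRCh37, minus strand).

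FZD7, a Frizzled receptor with a single coding exon (chr2:202898578-202903164, plus strand), was measured at 5.60 to 13.8 FPKM over the 12 libraries. COLO858 libraries held 7.95 and 8.12 in DMSO, 6.89 and 5.60 at 24 h, and 8.92 and 9.61 at 48 h. Libraries at 24 h were the lowest and those at 48 h the highest, with no overlap. Changes from DMSO of -0.32 ± 0.15 and 0.18 ± 0.15 did not pass the test (limma adjusted p = 0.180 and 0.431). In MMACSF it was 13.8 and 12.1 in DMSO, 10.9 and 9.32 at 24 h, and 9.50 and 10.5 at 48 h, with every drug library below both DMSO libraries. These changes, -0.32 ± 0.15 and -0.34 ± 0.15, did not pass either (limma adjusted p = 0.183 and 0.160).

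CTNNB1, which encodes β-catenin, was the most abundant of the 10 genes in every library. It ranked between 249 and 550 among all 23273 genes in the COLO858 libraries and between 125 and 162 in those of MMACSF. In COLO858 its FPKM was 174 and 227 in DMSO, 242 and 307 at 24 h, and 199.8 and 258 at 48 h. Both 24 h libraries were above the DMSO pair, and the 48 h libraries overlapped with it. Changes of 0.46 ± 0.22 and 0.19 ± 0.22 did not pass the test (limma adjusted p = 0.184 and 0.557). MMACSF libraries held 684 and 828 in DMSO, 551 and 666 at 24 h, and 487 and 595 at 48 h, so that drug libraries lay below the DMSO pair. Changes there were -0.31 ± 0.18 and -0.48 ± 0.18 and did not pass (limma adjusted p = 0.261 and 0.103). The signs were opposite in the 2 lines, but the difference between them, 0.77 ± 0.30 at 24 h and 0.67 ± 0.30 at 48 h, did not pass (limma adjusted p = 0.174 and 0.184). CTNNB1 lies at chr3:41236232-41301587 (plus strand).

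AXIN2, a scaffold of the destruction complex and a widely used readout of β-catenin activity (chr17:63524681-63557766, minus strand), was higher in drug by value in both lines. COLO858 libraries held 1.46 and 0.737 FPKM in DMSO, 1.79 and 1.35 at 24 h, and 3.48 and 3.26 at 48 h. The 48 h libraries stood above the other 4, and their mean was 3.07 times that of DMSO. The change of 1.08 ± 0.21 missed the threshold (limma adjusted p = 0.0212), and the one at 24 h was 0.31 ± 0.21 (limma adjusted p = 0.331). In MMACSF it was 3.44 and 3.52 in DMSO, 4.20 and 3.94 at 24 h, and 4.43 and 3.82 at 48 h. These groups did not overlap with DMSO, and the changes were small, at 0.18 ± 0.14 and 0.19 ± 0.14 (limma adjusted p = 0.421 and 0.373).

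LEF1, the TCF/LEF factor that is itself often induced by β-catenin signaling, showed the largest change of the 10 genes in COLO858. Its FPKM there was 30.7 and 33.4 in DMSO, 9.41 and 9.10 at 24 h, and 6.73 and 7.19 at 48 h. Every drug library was under all DMSO libraries by a wide margin, and those at 48 h lay under those at 24 h. Mean FPKM was 3.46-fold lower at 24 h and 4.60-fold lower at 48 h. LEF1 fell by 1.69 ± 0.13 on the log2 scale at 24 h and by 2.05 ± 0.13 at 48 h (limma adjusted p = 0.00177 and 0.00115). The call at 24 h was lost without either DMSO or either 24 h library (limma adjusted p = 0.0181 to 0.0233), and the one at 48 h without either DMSO or either 48 h library (limma adjusted p = 0.0148 to 0.0152), with changes of -1.63 to -1.75 and -1.99 to -2.11.

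In MMACSF, LEF1 was 31.6 and 35.3 FPKM in DMSO, 18.3 and 23.3 at 24 h, and 21.0 and 25.1 at 48 h. The drug libraries lay below the DMSO pair and the 2 drug times overlapped. Changes of -0.67 ± 0.17 and -0.52 ± 0.17 did not pass the test (limma adjusted p = 0.0485 and 0.0803). LEF1 lies at chr4:108968701-109090112 (minus strand), and the start site in the RefSeq table is 2655 bases inside the annotated gene.

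TCF7, which encodes the T-cell factor TCF-1 and carries the intragenic sequence shown above (chr5:133450372-133487556, plus strand), was lower in drug in every comparison by value. In MMACSF its FPKM was 6.35 and 7.44 in DMSO, 3.61 and 3.86 at 24 h, and 2.57 and 2.91 at 48 h. The 3 groups did not overlap, with 48 h the lowest. TCF7 fell by 1.08 ± 0.15 at 48 h (limma adjusted p = 0.00807), a mean FPKM 2.52-fold lower, while the change at 24 h was -0.74 ± 0.15 (limma adjusted p = 0.0267). The 48 h call was lost without any 1 of the 6 libraries of the line (limma adjusted p = 0.0205 to 0.0646, changes of -0.98 to -1.18), with no minimum level (0.0156), and with the spread taken from the 4 libraries compared (0.0210). In COLO858 it was 11.5 and 11.9 in DMSO, 7.17 and 9.48 at 24 h, and 6.90 and 7.51 at 48 h. Both drug times lay below DMSO and overlapped with each other. Changes of -0.46 ± 0.17 and -0.63 ± 0.17 did not pass (limma adjusted p = 0.110 and 0.0497). SKP1, a neighbor that overlaps TCF7 on the opposite strand, was measured at 73.4 to 165 FPKM and had a change of -0.20 ± 0.24 at 48 h in MMACSF (limma adjusted p = 0.582). The part of SKP1 in the TCF7 values was not tested.

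TCF7L2, which encodes TCF-4 (chr10:114710006-114927437, plus strand), had opposite signs in the 2 lines. In COLO858 it was 10.6 and 12.7 FPKM in DMSO, 6.35 and 7.69 at 24 h, and 7.76 and 7.98 at 48 h. All drug libraries were below the DMSO pair, with changes of -0.66 ± 0.17 and -0.51 ± 0.17 that did not pass (limma adjusted p = 0.0396 and 0.0794). Libraries of MMACSF held 3.83 and 5.59 in DMSO, 6.09 and 6.78 at 24 h, and 5.66 and 6.10 at 48 h, all drug libraries above the pair. Those changes were 0.40 ± 0.19 and 0.29 ± 0.19 (limma adjusted p = 0.204 and 0.328).

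TCF7L1, the family member best known as a repressor, was added to complete the TCF/LEF family. In COLO858 it was 7.31 and 5.35 FPKM in DMSO, 7.96 and 6.23 at 24 h, and 14.5 and 12.7 at 48 h, a change of 1.00 ± 0.21 at 48 h (limma adjusted p = 0.0236). For MMACSF it was 14.7 and 13.1 in DMSO, 22.0 and 19.4 at 24 h, and 27.6 and 24.3 at 48 h, a change of 0.85 ± 0.14 at 48 h (limma adjusted p = 0.0126). The 48 h libraries of each line were above its DMSO libraries, and neither change passed.

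The make-up of TCF/LEF RNA shifted away from LEF1 in both lines. LEF1 made up 51.9% ± 1.2 (SD, n = 2) of the summed FPKM of the 4 genes in COLO858 in DMSO, 29.2% ± 1.7 at 24 h, and 19.5% ± 1.1 at 48 h. TCF7L1 made up 10.3% ± 2.6, 22.5% ± 4.7, and 38.1% ± 3.3, and had the largest of the 4 shares at 48 h. In MMACSF the LEF1 share was 56.7% ± 1.1 in DMSO, 40.2% ± 5.0 at 24 h, and 40.0% ± 4.3 at 48 h, and the TCF7L1 share was 23.7% ± 3.4, 40.2% ± 5.4, and 45.1% ± 4.9. The summed FPKM of the 4 was 60.1 and 63.4 in DMSO in COLO858, and 30.9 to 35.9 in the drug libraries. In MMACSF it was 56.5 and 61.4 in DMSO and 50.1 to 58.4 in drug, which overlapped. These shares are a description, since 2 libraries against 2 cannot give an exact permutation p under 0.333.

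**Figure D3:**
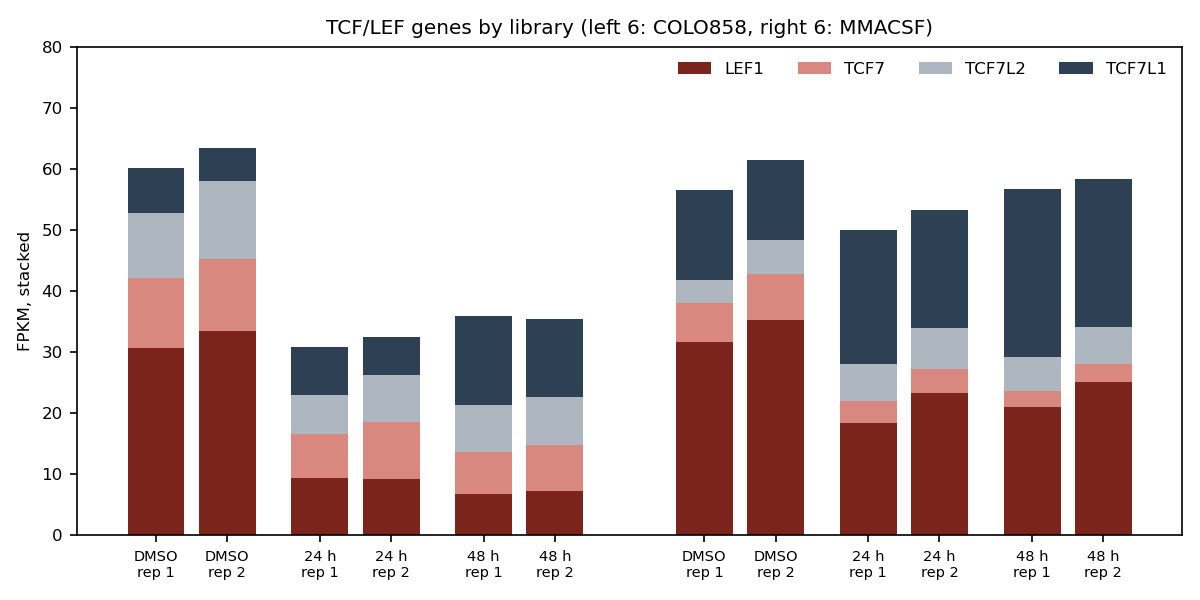
FPKM of LEF1, TCF7, TCF7L2, and TCF7L1 stacked in each of the 12 libraries. Columns of COLO858 in drug, at 30.9 to 35.9 FPKM, are lower than those in DMSO, while those of MMACSF keep a like height and gain in TCF7L1.

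DKK1, a secreted inhibitor that binds the LRP coreceptors and whose promoter is shown above (chr10:54074041-54077802, plus strand), was lower in every drug library of both lines. In COLO858 its FPKM was 2.90 and 3.26 in DMSO, 1.01 and 0.735 at 24 h, and 1.70 and 1.47 at 48 h. The 3 groups did not overlap, and 48 h lay between 24 h and DMSO. DKK1 fell by 1.13 ± 0.15 at 24 h (limma adjusted p = 0.00702), a mean FPKM 3.53-fold lower, and the change at 48 h was -0.66 ± 0.15 (limma adjusted p = 0.0325). The 24 h call was lost without any 1 of the 6 libraries of the line (limma adjusted p = 0.0180 to 0.0427, changes of -1.02 to -1.23) and with the spread taken from the 4 libraries compared (0.0169). In MMACSF it was 2.53 and 2.36 in DMSO, 0.386 and 0.287 at 24 h, and 0.118 and 0.596 at 48 h. Mean FPKM was 7.25-fold lower at 24 h and 6.84-fold lower at 48 h, but the changes, -1.37 ± 0.21 at each time, just missed the threshold (limma adjusted p = 0.0132 and 0.0108). The 48 h libraries lay far apart, and the ratio of means was 4.10-fold lower than DMSO without the smaller value and 20.7-fold lower without the larger. Adding 1 FPKM before the log makes the change of so low a gene smaller than the ratio of its FPKM.

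SFRP1, a secreted protein that binds WNT ligands and Frizzled receptors, was the secreted modulator that passed the test in MMACSF. Changes of DKK1 there, -1.37 ± 0.21 at each time, just missed the threshold. FPKM of SFRP1 was 28.6 and 31.6 in DMSO, 10.4 and 12.5 at 24 h, and 12.2 and 12.5 at 48 h. All drug libraries lay far below the DMSO pair, and the drug times overlapped. SFRP1 fell by 1.33 ± 0.14 at 24 h and by 1.22 ± 0.14 at 48 h (limma adjusted p = 0.00488 and 0.00489), with mean FPKM 2.64- and 2.43-fold lower. Each call was lost without any 1 of the 6 libraries of the line (limma adjusted p = 0.0250 to 0.0479 at 24 h, with changes of -1.21 to -1.45, and 0.0121 to 0.0506 at 48 h, with changes of -1.15 to -1.28), and with the spread taken from the 4 libraries compared (0.0245 and 0.0117). The summed level of 6 fibroblast markers was 58.0 to 79.3 FPKM in DMSO, 45.3 to 53.6 at 24 h, and 20.2 to 29.1 at 48 h. Of these markers 3 averaged at least 1 FPKM (COL1A2, LUM, and DCN), and 0 were listed at 0 in every library. At 24 h COL1A2 and DCN overlapped with DMSO, each with a ratio of means of 1.09, and LUM had a ratio of 0.687. At 48 h the 3 had ratios of 0.396, 0.431, and 0.353 (COL1A2, DCN, LUM), none passed at either time (limma), and their part in the SFRP1 values was not tested.

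In COLO858, SFRP1 was 4.02 and 5.08 FPKM in DMSO, 2.03 and 2.01 at 24 h, and 2.92 and 4.16 at 48 h. The 24 h libraries were the lowest, and one 48 h library fell within the DMSO range. Changes of -0.87 ± 0.20 and -0.30 ± 0.20 did not pass (limma adjusted p = 0.0298 and 0.321).

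DKK3, a divergent member of the DKK family (chr11:11977754-12031316, minus strand), rose in COLO858 and was close to 0 in MMACSF. In COLO858 its FPKM was 32.8 and 38.5 in DMSO, 55.2 and 58.5 at 24 h, and 65.9 and 74.0 at 48 h, with no overlap between groups. DKK3 rose by 0.96 ± 0.14 at 48 h (limma adjusted p = 0.00976), with a mean FPKM 1.96 times that in DMSO, and the change at 24 h was 0.66 ± 0.14 (limma adjusted p = 0.0266). The 48 h call was lost without any 1 of the 6 libraries of the line (limma adjusted p = 0.0293 to 0.0646, changes of 0.84 to 1.07), with 0.1 FPKM added in place of 1 (0.0102), with no minimum level (0.0119), without a mean-variance trend (0.0112), and with the spread taken from the 4 libraries compared (0.0282). MMACSF libraries held 0.0475 and 0.0723 in DMSO and 0.0563 and 0.0968 at 24 h, and at 48 h it was listed at 0 in 1 library and measured at 0.101 in the other, too low to be tested.

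Other values moved with DKK3 in COLO858. USP47, which overlaps DKK3 on the opposite strand, was 11.0 and 16.1 FPKM in DMSO and 23.1 and 29.0 at 48 h, and strand use in counting is not stated. The change of USP47 at 48 h, 0.91 ± 0.24, did not pass (limma adjusted p = 0.0435). In MMACSF USP47 was measured at 9.40 to 16.4 FPKM in the 6 libraries, and DKK3 at or under 0.101. The part of USP47 in the DKK3 values was not tested. The summed level of the 6 fibroblast markers in COLO858 was 8.47 to 11.5 FPKM in DMSO, 17.6 to 20.9 at 24 h, and 23.6 to 34.1 at 48 h, with 3 markers averaging at least 1 FPKM (COL1A2, COL3A1, and LUM) and 0 listed at 0 in every library. These 3 did not move together. COL3A1 rose, to 12.9 times its DMSO mean at 24 h and 39.8 times at 48 h (limma adjusted p = 0.00274 and 5.60e-04), while COL1A2 fell, with means 5.39- and 23.3-fold lower (limma adjusted p = 0.00889 and 0.00456). LUM was at 2.31 and 3.02 times its DMSO mean and did not pass (limma adjusted p = 0.0563 and 0.0284). COL1A1, which averaged under 1 FPKM, was at 2.85 and 7.59 times its DMSO mean. It passed at 48 h (limma adjusted p = 0.135 and 0.00935). The part of these fibroblast markers in the DKK3 values was not tested. In all, 8 of the 10 genes are overlapped by an annotated gene on the opposite strand. On the same strand 3 are (AXIN2, TCF7L2, and SFRP1), and the part of such overlaps in the values was not tested.

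Drug libraries at 24 and 48 h were also compared with each other. None of 9 genes passed in COLO858, where 1.38% of all genes did, and none of 9 in MMACSF, where 0.222% did (limma). At an unadjusted p under 0.05 there were 5 in COLO858, beside 20.1% of all genes, and 0 in MMACSF, beside 6.98%. The 5 were FZD7 (0.51 ± 0.15), AXIN2 (0.77 ± 0.21), DKK1 (0.47 ± 0.15), and SFRP1 (0.57 ± 0.20), all higher at 48 h, and LEF1 (-0.37 ± 0.13), with limma adjusted p from 0.120 to 0.213.

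The study used MMACSF as the control for COLO858, and the response of each gene was therefore compared between them. FPKM of the 2 lines come in separate tables, so only changes from each line's own DMSO libraries were compared, by the interaction term of a limma fit to all 12 libraries. LEF1 differed at 48 h. Its change in COLO858 was lower than that in MMACSF by 1.53 ± 0.20 (a difference of -1.53, limma adjusted p = 0.00174), and the difference passed in 18 of 18 alternative settings. LEF1 was the 1 gene that passed at 48 h of the 8 tested in both lines, beside 6.41% of the 11700 genes so tested, and 0 of 8 passed at 24 h, beside 2.82%. Over all 10 genes 0 passed at 24 h, beside 3.71% of all genes, with 4 at an unadjusted p under 0.05, beside 21.2% (limma).

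At 48 h 2 of 10 passed, beside 7.48% of all genes, but the second, DKK3, was under the minimum level in MMACSF. With 1 FPKM added, its change in MMACSF is held near 0, so that its difference of 0.97 ± 0.17 (limma adjusted p = 0.00737) restates the change of 0.96 in COLO858 and compares no pair of responses. This value too was lost without any 1 of the 12 libraries (limma adjusted p = 0.0111 to 0.0340, differences of 0.86 to 1.08), with no minimum level (0.0112), and with 0.1 FPKM added (0.131).

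The other differences did not pass. At 24 h they were -1.02 ± 0.20 for LEF1 (limma adjusted p = 0.0179), -1.06 ± 0.24 for TCF7L2 (0.0331), and 0.46 ± 0.24 for SFRP1 (0.325). At 48 h they were 0.92 ± 0.24 for SFRP1 (0.0331), 0.89 ± 0.25 for AXIN2 (0.0449), -0.79 ± 0.24 for TCF7L2 (0.0645), 0.71 ± 0.24 for DKK1 (0.0962), 0.52 ± 0.19 for FZD7 (0.117), and 0.44 ± 0.21 for TCF7 (0.209). For TCF7 the 95% confidence interval of the difference at 48 h was -0.03 to 0.92, so that responses alike in the 2 lines and responses that differ by close to 1 both lie within it.

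Of the 8 genes tested in both lines, 4 (LEF1, TCF7, DKK1, and SFRP1) had negative changes at both times in both lines, as did 27.0% of the 11700 genes tested in both. AXIN2 had positive changes in all 4 comparisons, as did 32.3% of genes. CTNNB1 and TCF7L2 had opposite signs in the 2 lines at both times, and FZD7 did at 48 h. Opposite signs were found for 24.7% of all genes at 24 h and 28.3% at 48 h.

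**Figure D4:**
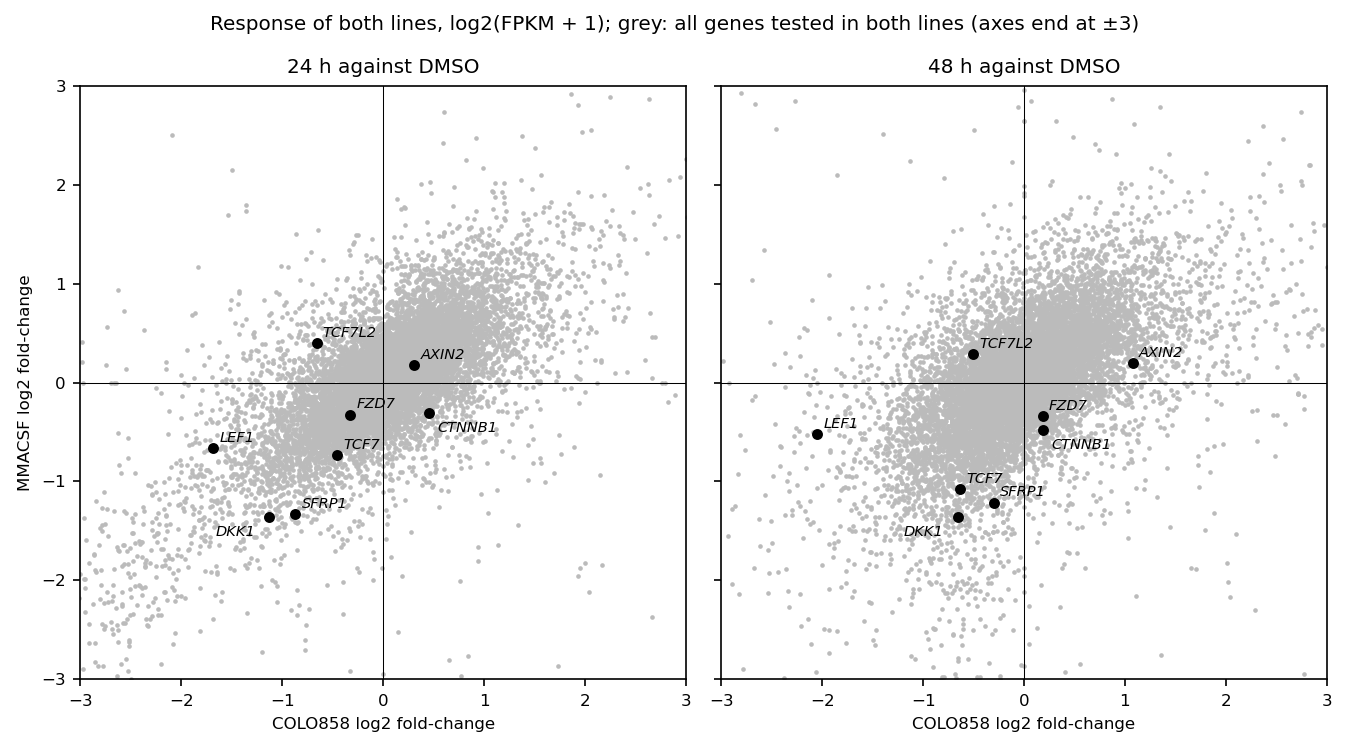
Change against DMSO in COLO858 (horizontal) and MMACSF (vertical) on the log2(FPKM + 1) scale, at 24 h and 48 h. Grey points are the 11700 genes tested in both lines and black points are the 8 Wnt genes among them. LEF1 at 48 h lies at -2.05 in COLO858 and -0.52 in MMACSF, to the left of the main cloud.

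Genes with the most similar responses were found for each Wnt gene that passed against DMSO, by Euclidean distance over its 4 changes among the 11700 genes. RIN1 (0.284) and PIM3 (0.297) were nearest to LEF1, with changes at 48 h of -2.08 and -2.26 in COLO858 and -0.35 and -0.46 in MMACSF. METAP1 (0.0847) and CLPB (0.148) were nearest to TCF7. ACOT7 (0.146) and HNRNPAB (0.156) were nearest to DKK1, and SNRNP25 (0.234) and FJX1 (0.243) to SFRP1. DKK3 was not tested in both lines and has no such list. With 4 values per gene that share the DMSO libraries of each line, such a distance is a description.

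The rest of the pathway was followed in 10 lists of 117 other genes, of which 116 were listed in the files, and 80 were tested in COLO858 and 76 in MMACSF. In COLO858, 7 passed at 24 h (8.75%, beside 9.82% of all genes) and 9 at 48 h (11.25%, beside 9.47%). In MMACSF, 4 passed at 24 h (5.26%, beside 5.83%) and 6 at 48 h (7.89%, beside 8.83%). The share that passed was thus close to the background in each comparison. Some genes are in reach of more than the Wnt pathway, and CCND1 is also counted among MAPK output genes.

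At the cell surface few genes passed. Of 18 further WNT ligands, 4 were tested in COLO858 and 1 in MMACSF. WNT10B had the highest mean, at 3.65 and 3.37 FPKM in DMSO and 0.893 and 1.25 at 48 h in COLO858 (a change of -1.13 ± 0.24, limma adjusted p = 0.0267). WNT2B fell by 0.97 ± 0.14 at 24 h in COLO858 (limma adjusted p = 0.00789), from 1.10 and 1.28 FPKM to 0.175 and 0.0589. PORCN, which lipidates WNT ligands, fell by 1.55 ± 0.17 at 48 h in COLO858 (limma adjusted p = 0.00456), from 11.2 and 10.2 FPKM to 3.32 and 2.66. WLS, which carries ligands to the surface, was measured at 29.8 to 41.2 FPKM in the 12 libraries, and neither line passed.

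Of 9 other Frizzled receptors, 8 were tested in each line and 0 passed against DMSO, with 1 and 2 at an unadjusted p under 0.05 in COLO858, beside 40.3% and 39.3% of all genes, and 2 and 1 in MMACSF, beside 36% and 38.9%, at 24 and 48 h (limma). FZD1 had the highest mean in COLO858 (9.80 to 19.7 FPKM) and FZD6 in MMACSF (18.8 to 28.2 FPKM). Of 5 coreceptors tested in each line, PTK7, a receptor of the planar polarity branch, rose by 0.91 ± 0.12 at 48 h in MMACSF (limma adjusted p = 0.00721), from 14.6 and 13.6 FPKM to 29.0 and 25.9. LRP5, the coreceptor with the highest mean in COLO858, was 76.8 and 46.5 FPKM in DMSO and 32.2 and 20.7 at 48 h, a change of -1.18 ± 0.37 that did not pass (limma adjusted p = 0.0736). RYK led the list in MMACSF, at 21.2 to 29.7 FPKM.

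Among other secreted inhibitors, 3 were tested in COLO858 and 0 in MMACSF. FRZB, a secreted Frizzled-related protein, fell in COLO858 by 1.40 ± 0.13 at each time (limma adjusted p = 0.00286 and 0.00306), from 2.00 and 2.25 FPKM to between 0.136 and 0.239. SOSTDC1 was the highest of the list in COLO858, at 0.337 to 1.99 FPKM, and did not pass. Of the genes of receptor turnover, 0 passed in either line. At an unadjusted p under 0.05 there were 3 and 2 of 4 in COLO858, beside 40.3% and 39.3% of all genes (limma). There were 1 and 1 of 5 in MMACSF, beside 36% and 38.9%. KREMEN1, a DKK1 receptor, was 38.3 and 39.9 FPKM in DMSO and 66.1 and 65.7 at 24 h in COLO858 (a change of 0.74 ± 0.12, limma adjusted p = 0.0106).

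Inside the cell, 1 of 20 transducers passed in MMACSF and 0 of 19 in COLO858. Of the 19, 5 and 3 had an unadjusted p under 0.05 at 24 and 48 h, beside 40.3% and 39.3% of all genes (limma). DVL3, a Dishevelled protein, rose by 0.79 ± 0.11 at 48 h in MMACSF (limma adjusted p = 0.00818), while its change in COLO858 was 0.85 ± 0.15 (limma adjusted p = 0.0139). CSNK1E led this list in COLO858 (89.0 to 120 FPKM) and CSNK1A1 in MMACSF (45.4 to 59.9 FPKM), and neither passed. Among catenins and nuclear factors, CTNNA1 (α-catenin) rose by 1.25 ± 0.14 at 48 h in COLO858 (limma adjusted p = 0.00420), from 86.5 and 97.7 FPKM to 208 and 234. TLE1, a Groucho corepressor that binds TCF/LEF proteins, rose by 1.12 ± 0.16 (limma adjusted p = 0.00924). In MMACSF 0 of 14 genes of this list passed, with 6 and 4 at an unadjusted p under 0.05, beside 36% and 38.9% of all genes (limma). AES, the highest of the list in COLO858, did not pass in either line.

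The list of commonly used β-catenin targets also holds AXIN2, LEF1, TCF7, and DKK1, which are described above and not counted here. Of the other targets, CCND1 (cyclin D1) and MYC were the ones that passed. In COLO858 1 of 6 tested passed at 24 h and 2 at 48 h, beside 9.82% and 9.47% of all genes. In MMACSF 2 of 8 passed at each time, beside 5.83% and 8.83%. CCND1 was 418 and 466 FPKM in DMSO in COLO858, 48.1 and 50.4 at 24 h, and 125 and 134 at 48 h, and fell by 3.14 ± 0.12 and 1.76 ± 0.12 (limma adjusted p = 5.39e-04 and 0.00126). It was also the single gene of the wider lists that passed between 24 and 48 h in COLO858, where it rose by 1.38. In MMACSF it fell by 3.08 ± 0.12 and 2.64 ± 0.12 (limma adjusted p = 5.03e-04 and 4.28e-04). MYC fell by 1.68 ± 0.16 at 48 h in COLO858 and by 1.74 ± 0.18 and 1.23 ± 0.18 at 24 and 48 h in MMACSF (limma adjusted p = 0.00274, 0.00438, and 0.00842). BAMBI, the highest of the list in MMACSF, was 139.8 and 129 FPKM in DMSO and 87.2 and 78.7 at 48 h, a change of -0.69 ± 0.12 (limma adjusted p = 0.0136).

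The planar polarity and calcium branch held the clearest contrast between the lines. DAAM2, a formin that binds Dishevelled, was 5.54 and 5.56 FPKM in the DMSO libraries of COLO858 and 28.7 and 25.4 in its 48 h libraries. MMACSF had 66.2 and 69.6 FPKM in DMSO and 23.0 and 22.6 at 48 h. It rose by 1.04 ± 0.14 and 2.10 ± 0.14 in COLO858 (limma adjusted p = 0.00629 and 0.00115) and fell by 1.32 ± 0.11 and 1.53 ± 0.11 in MMACSF (limma adjusted p = 0.00258 and 0.00133). The difference between lines was 2.36 ± 0.14 at 24 h and 3.63 ± 0.14 at 48 h (limma adjusted p = 8.02e-05 and 5.01e-06). NFATC2, a calcium-responsive transcription factor, rose by 1.69 ± 0.25 and 3.26 ± 0.25 in COLO858 (limma adjusted p = 0.00925 and 0.00168), from 0.274 and 0.203 FPKM to 14.1 and 8.33 at 48 h, and its difference between lines at 48 h was 2.21 ± 0.32 (limma adjusted p = 0.00255). In MMACSF it was also higher at 48 h, at 117 and 96.8 FPKM from 55.0 and 47.2 in DMSO, and did not pass. The 2 lines thus moved in the same direction for NFATC2, unlike for DAAM2.

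VANGL2, a core planar polarity protein, rose at both times in both lines, by 1.21 ± 0.13 and 1.05 ± 0.13 in COLO858 and by 0.92 ± 0.13 and 1.01 ± 0.13 in MMACSF (limma adjusted p = 0.00383, 0.00586, 0.00920, and 0.00579). The call at 24 h in MMACSF was lost with median-ratio rescaling (0.0101), with no minimum level (0.0134), and without a trend (0.0102), and each of the 4 was lost without any 1 library of its line (0.0166 to 0.0654) and with the spread taken from the 4 libraries compared (0.0172 to 0.0379). CELSR2, a cadherin of the same branch, rose by 1.57 ± 0.22 at 24 h in COLO858 (limma adjusted p = 0.00774), and CAMK2D, the highest of the list in COLO858, did not pass. Of the 72 genes of these lists tested in both lines, 1 differed between lines at 24 h (1.39%, beside 2.82% of all genes tested in both) and 6 at 48 h (8.33%, beside 6.41%). At 48 h they were DAAM2, NFATC2, CTNNA1, and CCND1, where the change in COLO858 minus that in MMACSF was positive, and PORCN and PTK7, where it was negative. A further 3 passed at 48 h, FRZB, WNT2B, and TLE4, but were under the minimum level in MMACSF, where adding 1 FPKM holds changes near 0, and so compare no pair of responses (for FRZB, -1.40 as the difference and -1.40 in COLO858). Of the 26 calls against DMSO in these lists, 23 were lost without at least 1 library and 17 under at least 1 of the other alternatives.

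**Figure D5:**
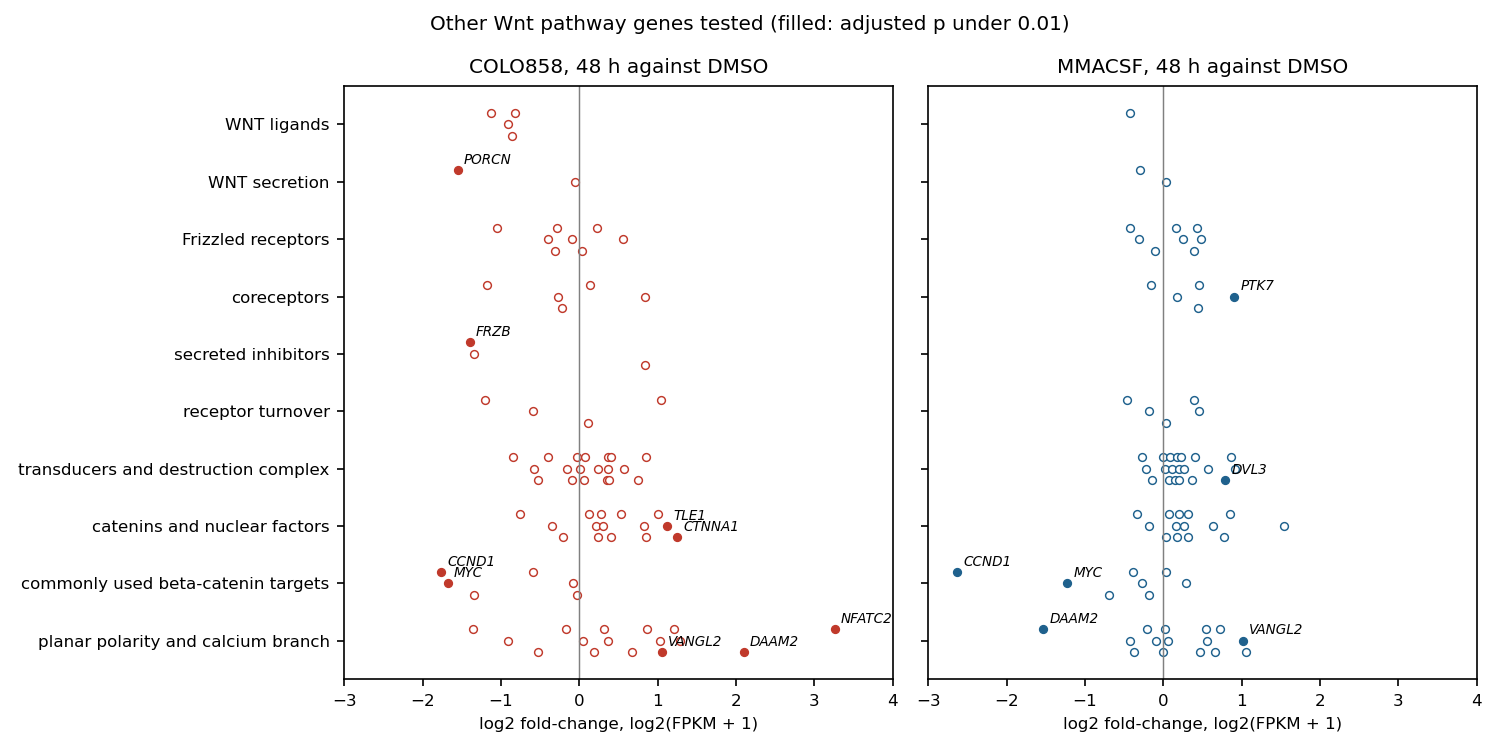
Change at 48 h against DMSO of the other Wnt pathway genes tested, with 1 row per list and 1 panel per line, on the log2(FPKM + 1) scale. Filled and labelled points passed the threshold, 9 in COLO858 and 6 in MMACSF. DAAM2 lies at 2.10 in COLO858 and at -1.53 in MMACSF.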

How the data were processed

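RNA of COLO858 and MMACSF cells was sequenced from stranded mRNA libraries as single reads of 50 bases, with 2 libraries in each of 6 groups. Per the labels and the methods of the study, the authors mapped reads to hg19 with TopHat and obtained gene values with Cuffdiff. The values used are the FPKM that the authors deposited, in 1 table per line. That they are FPKM rests on the methods and on the range of the values. Versions, gene annotation, strand setting, and scaling between libraries are not given in the sources used here, nor is read depth.

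Each line was fitted with limma 3.58.1 in R 4.3.3 on log2(FPKM + 1), as 3 groups with a mean-variance trend. Responses were compared between lines as an interaction over 12 libraries. Genes that averaged 1 FPKM or more in any group were tested. Tests were two-sided, adjusted by Benjamini-Hochberg over all genes, with a threshold of 0.01 as in the study. Errors of changes are SE. The procedure was tested on simulated data.

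The genes and lists were chosen with earlier results of these data known. Named genes are the 10 members, and from each list those past the threshold (up to 3 per line) and the one with the highest mean. TLE4 was named for its difference between lines after its values were seen. Positions are from GENCODE v44 on GRCh37, and promoter sequences from the RefSeq table (GRCh38.p14), matched by sequence in GRCh37. Alternatives were 0.1 FPKM added, no minimum, the replicate number as a block, median-ratio rescaling, no trend, no small RNA genes, a spread taken from 4 libraries alone, and omission of each library.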

Additional observations from a re-analysis of the deposited data

Results flagged for a closer look

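The response of LEF1 to 48 h of vemurafenib differed between the 2 lines by the test of the difference itself. The change in COLO858 minus that in MMACSF was -1.53 ± 0.20 (SE) on the log2(FPKM + 1) scale (limma adjusted p = 0.00174, 0.000106 to 0.00963 over the alternatives), with both 48 h libraries of each line below its DMSO pair. With 2 libraries per group, single libraries could not be searched for outlying values.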

How the results depend on the processing

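With 2 libraries per group, the counts of changed Wnt genes rest on few libraries. Every change against DMSO printed for the 10 genes kept its sign under every alternative, except WNT5A in MMACSF. At 24 h WNT5A was -0.067 with median-ratio rescaling and -0.22 to 0.24 with 1 library left out, and at 48 h 0.0012 with 0.1 FPKM added and -0.24 to 0.22 with 1 library left out. Single-gene values between 24 and 48 h and between lines were followed only where printed, a choice made after their values were seen. Rescaling moved the median change of all genes by less than 0.1 in each comparison. Depth is unknown, so precision of low genes (WNT5A, DKK1, and AXIN2) could not be set.

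Counts below run over COLO858 at 24 and 48 h against DMSO, MMACSF at 24 and 48 h against DMSO, and the difference between lines at 24 and 48 h. They were 2, 2, 1, 2, 0, and 2 of the 10 genes, and 7, 9, 4, 6, 3, and 9 of the wider lists. With 0.1 FPKM added, 1 of the 10 genes passed in COLO858 at 48 h and 1 for the difference at 48 h. With no minimum, 1 passed in each of these and 1 in MMACSF at 48 h, and the wider list had 0 between 24 and 48 h in COLO858. Without a trend, 1 passed in COLO858 at 48 h. With the spread from the 4 libraries compared, 1, 1, 0, and 0 of the 10 genes and 3, 4, 1, and 2 of the wider lists passed, with 0 between 24 and 48 h in COLO858. With median-ratio rescaling, 1 of the 10 genes passed for the difference at 24 h. The wider lists had 15 in COLO858 at 48 h, 2 between the times in COLO858, 3 in MMACSF at 48 h, and 6 for the difference at 24 h. Higher and lower calls of the wider lists went from 4 and 3 to 2 and 3 in COLO858 at 24 h, from 1 and 3 to 0 and 3 in MMACSF at 24 h, from 3 and 3 to 1 and 2 at 48 h, and for the difference from 1 and 2 to 3 and 3 at 24 h and from 4 and 5 to 5 and 3 at 48 h. Without small RNA genes, 2 of the 10 genes passed in MMACSF at 24 h, and 11 and 20 of the wider lists in COLO858 and 10 in MMACSF at 48 h.

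Leaving out any 1 library lowered most of the counts. Of the 10 genes, 0 to 1 passed in COLO858 at 24 h and at 48 h, with 0 without either DMSO library. In MMACSF 0 passed at 24 h and 0 at 48 h, and for the difference 1 passed at 48 h, whichever library was left out. Of the wider lists, 1 to 3 and 0 to 4 passed in COLO858, 0 between the times there, 1 and 1 to 2 in MMACSF, and 4 to 9 for the difference at 48 h. A fit that left 1 library in a group assumed that it varied like the others. Fewer libraries were used in these fits, and the cause of the other shifts was not tested.

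The same replicate numbers recur in each group of a line, and what they mark is not stated. Subtracting group means, libraries with equal numbers had correlations of 0.196 to 0.211 in COLO858 and 0.0628 to 0.113 in MMACSF, and at 0.753 to 0.779 and 0.590 to 0.673 without small RNA genes. With the replicate number as a block, 6, 5, 4, 5, 4, and 6 of the 10 genes passed, 1 (CTNNB1) between the times in COLO858, and 40, 37, 23, 19, 20, and 26 of the wider lists, with 17 between the times in COLO858. Calls among all genes rose too, from 1247 to 5719 and from 1202 to 5549 of 12696 in COLO858. In MMACSF they rose from 734 to 3284 and from 1113 to 3790 of 12599. For the difference they rose from 505 to 2396 and from 1017 to 3434 of 13595, and between the times in COLO858 from 175 to 2280. The block kept the calls of the fit without it among the 10 genes. Without it 0 of the 10 genes passed in both lines at the same time, and with it 3 did at 24 h (CTNNB1, LEF1, and SFRP1) and 2 at 48 h (LEF1 and TCF7). It added CTNNB1, DKK3, SFRP1, and TCF7L2 in COLO858 at 24 h, AXIN2, TCF7, and TCF7L2 at 48 h, CTNNB1, LEF1, and TCF7 in MMACSF at 24 h, and CTNNB1, DKK1, and LEF1 at 48 h. For the difference between lines it added CTNNB1, DKK3, LEF1, and TCF7L2 at 24 h and AXIN2, CTNNB1, SFRP1, and TCF7L2 at 48 h. Without small RNA genes, libraries of equal number thus shared deviations over the groups of each line, which the main fit leaves out. For the genes that the block added, whether they passed depends on this choice. With 2 pairs per comparison and no statement of what the numbers mark, the source of the shared deviations could not be decided.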
